A study of Mus musculus with 18 samples.

Results

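The imprinted pair H19 and Igf2 was followed through single-cell transcriptomes of mouse embryos that lacked a DNA methyltransferase. Both genes were picked by symbol from the gene list of the libraries, 2 of the 31053 mouse genes counted. H19 (ENSMUSG00000000031) is a long non-coding RNA gene on chromosome 7 of the mm10 build, chr7:142575529-142578143, minus strand. Igf2 (ENSMUSG00000048583) is a protein-coding gene on the same strand, chr7:142650766-142666816, and its annotated start lies 88.7 kb from the start of H19.

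The 2 genes are a textbook case of genomic imprinting, in which the allele that is expressed depends on the parent it came from. The control region between them is methylated on the paternal chromosome, where Igf2 is expressed, and free of methylation on the maternal chromosome, where the insulator protein CTCF binds it, H19 is expressed and Igf2 is cut off from the enhancers that both genes use. IGF2 is a growth factor of the embryo and placenta, H19 RNA is abundant in endoderm and mesoderm of the embryo and in its extraembryonic (ExE) membranes, and DNMT1 is the enzyme that copies methylation, imprints included, to the daughter strands at cell division, whereas DNMT3A and DNMT3B place methylation anew. Methylation and the parental origin of transcripts were not measured in the libraries described here.

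Single embryos at embryonic day 8.5 (E8.5) were dissociated, and the cells were profiled in droplet libraries (10x Genomics 3' v3), in which reads are collapsed by molecular barcode into UMIs. Of the 18 libraries, 7 were wildtype (WT), 3 came from Dnmt1-/-, 4 from Dnmt3a-/- and 4 from Dnmt3b-/- embryos, all on the 129S4/SvJae background. Mutants and wildtypes came from natural matings of mice heterozygous for a constitutive mutation in the gene concerned, so that every cell of a mutant embryo, extraembryonic cells included, carried it. The groups are called Dnmt1 KO, Dnmt3a KO and Dnmt3b KO.

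The sequences below show what this locus encodes and where Igf2 transcription can begin. H19 hosts a microRNA gene, Mir675 (chr7:142577064-142577147), and its 2 mature products lie at bases 1011 to 1032 (5p) and 1045 to 1066 (3p) of the 2286-base transcript H19-202, also within 2 further annotated transcripts. They are shown 5′ to 3′ because they are the known small-RNA products of the RNA that rose in Dnmt1 KO embryos, with the seed (bases 2 to 8) in capitals; mature microRNAs are not captured by a poly(A) library and were not measured. The seeds differ, so the products form 2 seed groups.
mmu-miR-675-5p: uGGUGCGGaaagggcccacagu
mmu-miR-675-3p: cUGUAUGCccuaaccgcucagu
Igf2 has 4 annotated start sites with a promoter sequence in RefSeq. The 250 bases before start 1, the most distal, and before start 3 are shown because they lie at opposite ends in their content of CG, the dinucleotide that DNA methyltransferases act on, which is in capitals. Start 1, at 142666816, was preceded by 1 CG (chr7:142666817-142667066, minus strand), and 7.87% of 32851 mouse promoters had fewer in the same window. Start 3, at 142658804, was preceded by 22 (chr7:142658805-142659054, minus strand), and 85.2% of promoters had fewer. Starts 2 and 4 had 10 and 6, against a median of 6.
Igf2 start 1: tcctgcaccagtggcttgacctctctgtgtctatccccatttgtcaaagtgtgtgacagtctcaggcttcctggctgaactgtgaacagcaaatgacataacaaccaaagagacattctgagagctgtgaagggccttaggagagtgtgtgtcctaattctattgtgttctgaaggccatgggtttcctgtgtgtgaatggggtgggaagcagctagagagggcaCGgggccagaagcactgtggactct
Igf2 start 3: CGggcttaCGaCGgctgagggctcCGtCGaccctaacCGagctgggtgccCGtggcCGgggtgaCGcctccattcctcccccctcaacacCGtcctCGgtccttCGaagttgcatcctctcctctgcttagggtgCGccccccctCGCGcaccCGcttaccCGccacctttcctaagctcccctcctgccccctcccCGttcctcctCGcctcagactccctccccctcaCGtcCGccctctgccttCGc
The promoter windows are a description of the locus. Reads from the 3' end do not tell which start was used.

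Of 162336 barcodes, 109962 were kept as cells (34421 from WT, 7068 from Dnmt1 KO, 34004 from Dnmt3a KO, and 34469 from Dnmt3b KO embryos), with 3011164090 UMIs in all, between 36516346 and 279830077 per embryo, and a median per cell between 4463.5 and 59714. Libraries Dnmt3b KO 1 and 2 shared 12249 cell barcodes, 86.5% and 79.3% of their own, where the next closest pair of libraries shared 133, and 96.3% of the shared cells fell in the same cell class. They were summed as 1 embryo, Dnmt3b KO 1+2, which left 17 embryos, each a separate animal. The 7853 barcodes kept in both libraries enter the cell and UMI totals and the shares of cells from each of them. Dnmt1 was at 14.9 to 15.7 counts per 1000000 UMIs (CPM) in Dnmt1 KO embryos and 83.3 to 116 in WT, and Dnmt3a was at 7.35 to 11.7 in Dnmt3a KO and 23.1 to 34.97 in WT. The Dnmt3b counts (57.3 to 68.4 CPM in Dnmt3b KO, 35.4 to 87.2 in WT) come from the 3' end of the gene and do not check those labels. Dnmt3a was at 15.1 and 7.55 CPM in the libraries labelled Dnmt3b KO 11 and 12 against 32.0 in Dnmt3b KO 1+2. Both are under the WT range and the second is within that of Dnmt3a KO. The genotype labels of these 2 of the 3 Dnmt3b KO embryos are in doubt, as is what the Dnmt3b KO values and their differences from Dnmt3a KO stand for. Y-linked transcripts were present in 3 of 3 Dnmt1 KO, 4 of 4 Dnmt3a KO and 3 of 4 Dnmt3b KO libraries but in 1 of 7 WT libraries, so sex and genotype were partly confounded. The Dnmt3b KO library without them was Dnmt3b KO 12.

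In Dnmt1 KO embryos H19 rose and Igf2 fell. H19 stood at 1727, 1467 and 1097 CPM in Dnmt1 KO 1, 2 and 3 (1430 ± 317, SD, n = 3). In WT the lowest embryo was at 415, the median at 481 and the highest at 545 CPM (492.96 ± 50.4, SD, n = 7). Every Dnmt1 KO embryo was therefore above every WT embryo, an ordering that 10.9% of the 18760 genes tested also showed. The fold change was 3.03 (log2 1.60, SE 0.18, 95% interval 1.24 to 1.96, adjusted p = 3.99e-06, edgeR quasi-likelihood test with Benjamini-Hochberg adjustment over all genes). A gene was called when its adjusted p was under 0.01 and its log2 fold change at least 1 in size, and 14.3% of all genes tested were called in this comparison, 8.15% higher and 6.11% lower.

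Igf2 stood at 0.450, 1.87 and 0.475 CPM in Dnmt1 KO 1, 2 and 3 (0.933 ± 0.815, SD, n = 3), which are 47, 247 and 38 UMIs. In WT the lowest embryo was at 7.03, the median at 9.58 and the highest at 12.05 CPM (9.25 ± 1.79, SD, n = 7), from 350 to 2182 UMIs per embryo. The groups did not overlap, with all 3 Dnmt1 KO embryos below WT, as held for 16.4% of genes, and Dnmt1 KO 2 stood apart from the other 2 mutants. Igf2 was called lower (log2 fold change -3.20, SE 0.43, 95% interval -4.04 to -2.36, adjusted p = 2.2e-05, edgeR quasi-likelihood test), a 9.20-fold fall. Without Dnmt1 KO 2 the log2 fold change was -4.27. The Igf2 count holds part of the gene's output: 3596 of its 5723 exon bases (62.8%), with the last exon of 7 of 9 transcripts, are shared with the same-strand gene Gm49394, and reads that match 2 genes are not counted, whereas H19 shares none of its 2460 exon bases. A level of H19 is therefore not to be read against a level of Igf2. Values of the pair are compared between embryos and classes only. Gm49394 itself was at 0.341 ± 0.164 CPM (SD, n = 7) in WT and 0.102 ± 0.0926 (SD, n = 3) in Dnmt1 KO and was not called (adjusted p = 0.0707, edgeR), and with both genes summed the log2 fold change of Igf2 was -3.11 (adjusted p = 3.12e-05, edgeR).

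With the share of Y-linked counts as a covariate, the log2 fold changes in Dnmt1 KO were 1.37 for H19 (adjusted p = 0.00312, edgeR) and -3.67 for Igf2 (adjusted p = 9.91e-05, edgeR).

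The change was also seen as the number of H19 UMIs per Igf2 UMI in the same embryo, which does not depend on library scaling. Since Igf2 reads are counted in part, the size of this ratio has no meaning of its own, and only its differences between embryos are read. In WT it ran from 45.2 to 64.4 (54.2 ± 6.15, SD, n = 7). In Dnmt1 KO 1, 2 and 3 it was 3837, 783 and 2307. The mutants were more than an order of magnitude above the highest WT embryo. On the log2 scale the ratio was 10.88 ± 1.16 (SD, n = 3) in Dnmt1 KO and 5.75 ± 0.16 (SD, n = 7) in WT, a difference of 5.13 (exact two-sided permutation test, p = 0.0167, the smallest that 3 against 7 embryos allow, 0.05 after adjustment over the 3 KO groups, which does not fall below 0.05). The number of H19 UMIs per Igf2 UMI was 48.6 to 73.8 in Dnmt3a KO and 46.5 to 67.7 in Dnmt3b KO embryos, overlapping with WT, and the log2 differences were 0.15 and 0.07 (exact permutation p = 0.291 and 0.617, adjusted 0.436 and 0.617).

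In the other KO groups neither gene was called. H19 was at 525, 951, 463 and 649 CPM in Dnmt3a KO 1, 2, 13 and 14 (647 ± 217, SD, n = 4), so that Dnmt3a KO 2 and 14 lay above the WT range and the other 2 within it. The log2 fold change was 0.38 (SE 0.17, 95% interval 0.04 to 0.72, adjusted p = 0.501, edgeR), and 0.224% of all genes were called in this comparison. In Dnmt3b KO 1+2, 11 and 12 H19 was at 750, 451 and 534 CPM (578 ± 155, SD, n = 3), 1 embryo above the WT range and 2 within it, the log2 fold change being 0.19 (SE 0.19, 95% interval -0.18 to 0.56, adjusted p = 0.644, edgeR) and 1.8% of all genes called. Igf2 was at 9.30, 14.9, 9.53 and 8.79 CPM in Dnmt3a KO 1, 2, 13 and 14 and at 16.1, 7.86 and 7.90 CPM in Dnmt3b KO 1+2, 11 and 12. In each group 1 embryo was above the WT range and the others inside it. The log2 fold changes were 0.20 (95% interval -0.42 to 0.81, adjusted p = 0.908, edgeR) and 0.16 (95% interval -0.52 to 0.83, adjusted p = 0.855, edgeR). Apart from H19 in Dnmt3a KO, these directions turned when 1 embryo was left out: without Dnmt3a KO 2 Igf2 was at -0.033 in Dnmt3a KO, without Dnmt3b KO 1+2 H19 was at -0.014 and Igf2 at -0.24 in Dnmt3b KO, and with the Y-linked covariate Igf2 was at -0.24 and -0.14. Without the libraries labelled Dnmt3b KO 11 and 12 the values for Dnmt3b KO rested on 1 embryo and were 0.52 for H19 and 0.72 for Igf2, with no call.

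**Figure D1:**
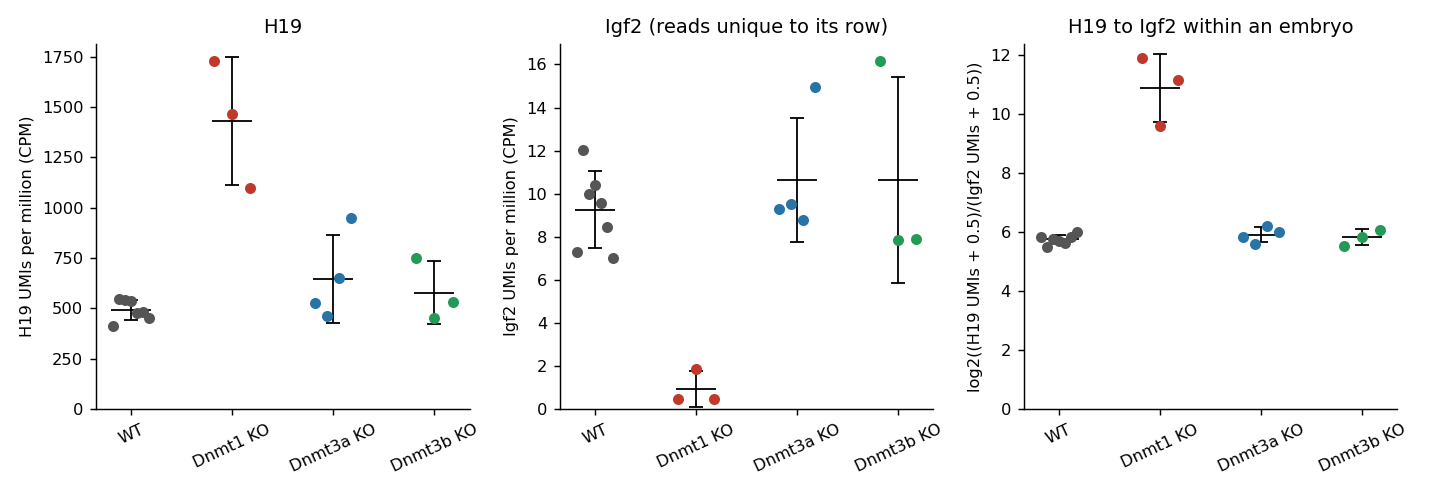
H19 (left) and Igf2 (middle) in CPM on linear axes from 0 and the log2 of H19 UMIs per Igf2 UMI (right, 0.5 added to both), 1 point per embryo, with the mean of each group as a line and its SD as bars. The 3 Dnmt1 KO embryos sit above WT for H19 (1097 to 1727 CPM against 415 to 545) and below WT for Igf2 (0.450 to 1.87 CPM against 7.03 to 12.05), and the embryos of the other KO groups spread around the WT values.

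The Dnmt1 KO change was compared directly with those of the other KO groups. H19 was higher in Dnmt1 KO than in Dnmt3a KO embryos (log2 1.22, SE 0.21, adjusted p = 0.000339, edgeR, with 13.3% of genes called in this comparison) and than in Dnmt3b KO embryos (log2 1.41, SE 0.23, adjusted p = 0.000393, edgeR, with 8.66% of genes called). The first of these H19 calls was lost among libraries counted on the mouse genome alone (0.94, adjusted p = 0.0146, edgeR). Of the Dnmt3a KO embryos that setting left Dnmt3a KO 2 and 14, the highest of the group for H19. The second call was lost without Dnmt3b KO 11 and 12 (1.07), where 1 Dnmt3b KO embryo was left and was taken to vary like the other groups. Igf2 was lower in Dnmt1 KO than in Dnmt3a KO (log2 -3.40, adjusted p = 3.24e-05, edgeR) and Dnmt3b KO embryos (log2 -3.36, adjusted p = 9.05e-05, edgeR). Between Dnmt3b KO and Dnmt3a KO neither gene was called (H19 log2 -0.19, Igf2 log2 -0.04), where 0.213% of genes were.

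The share of cells with a UMI moved the same way as the level. With every cell thinned to 1500 UMIs, at least 1 H19 UMI was found in 69.0 ± 5.82% (SD, n = 3) of Dnmt1 KO cells and 41.7 ± 5.82% (SD, n = 7) of WT cells (93.7% and 83.3% before thinning). For Igf2 the thinned shares were 0.147 ± 0.108% and 1.56 ± 0.304% (3.53% and 19.8% before thinning). The thinned H19 share was 53.7 ± 18.4% (SD, n = 4) in Dnmt3a KO and 46.7 ± 8.96% (SD, n = 3) in Dnmt3b KO embryos. These are shares of cells with a UMI, and free RNA in the droplets adds to them. In WT forebrain and midbrain cells, the class with the least H19 by CPM, the thinned share was 5.16%, and in WT erythroid cells, the class with the least Igf2 by CPM, it was 0.139%. In WT hindbrain and spinal cord the thinned shares were lower still, 4.63% for H19 and 0.0709% for Igf2.

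Cells were grouped into classes to see where the pair was expressed and where it changed. Clusters were named from marker genes and with H19, Igf2 and the gene lists described further on kept out of the clustering, so a class name stands for cells like that type, and 19 classes held 34 of 45 clusters. Levels were computed from summed counts of a class in each embryo with at least 25 such cells. In whole-embryo values, fewer cells of a type and less RNA per cell cannot be told apart.

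In WT embryos the pair was highest in mesoderm of the embryo's extraembryonic side and low in neural classes, and Igf2 was as low in blood. H19 was at 1432 ± 206 CPM (SD, n = 6) in allantois and 1407 ± 133 (SD, n = 7) in ExE mesoderm, whose ranges overlapped, then at 1017 ± 187 in endothelium, 949 ± 49.9 in ExE endoderm (the visceral endoderm of the yolk sac), 714 ± 121 in cardiomyocytes, 600 ± 93.9 in pharyngeal mesoderm and 518 ± 89.9 in gut. Notochord (401 ± 125, n = 4), surface ectoderm (280 ± 79.3), somitic mesoderm (244 ± 51.1), presomitic mesoderm (171 ± 14.2) and erythroid cells (161 ± 20.9) followed. Neuromesodermal progenitors (NMPs, 63.4 ± 22.3), neural crest (52.6 ± 18.0, n = 6), hindbrain and spinal cord (34.4 ± 11.1) and forebrain and midbrain (31.5 ± 8.03) were lowest, the last 45.5-fold below allantois. The ranges of neighbouring classes were separate at 3 steps of this order, after ExE mesoderm, after somitic mesoderm and after erythroid cells, and overlapped at the others.

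Igf2 followed a similar order over the same 16 classes. It was at 41.7 ± 4.31 CPM (SD, n = 7) in ExE mesoderm, 37.8 ± 5.91 in allantois, 20.4 ± 4.80 in cardiomyocytes, 19.98 ± 5.65 in endothelium and 13.5 ± 1.82 in pharyngeal mesoderm. Gut (9.99 ± 2.04), surface ectoderm (9.89 ± 2.47), ExE endoderm (7.08 ± 1.44), notochord (4.44 ± 1.68), somitic mesoderm (4.40 ± 1.53), presomitic mesoderm (3.44 ± 0.910) and NMPs (1.77 ± 0.525) came next, and neural crest (0.971), forebrain and midbrain (0.815), hindbrain and spinal cord (0.586) and erythroid cells (0.578) were lowest, the last 72.0-fold under ExE mesoderm. The ranges were separate only after presomitic mesoderm. Across the 16 class means the log2 levels of the pair had a Pearson r of 0.91 and a Spearman rho of 0.92, a description over classes that share libraries. The order differed most in ExE endoderm, at rank 4 for H19 and rank 8 for Igf2, and in erythroid cells, at rank 12 and rank 16.

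**Figure D2:**
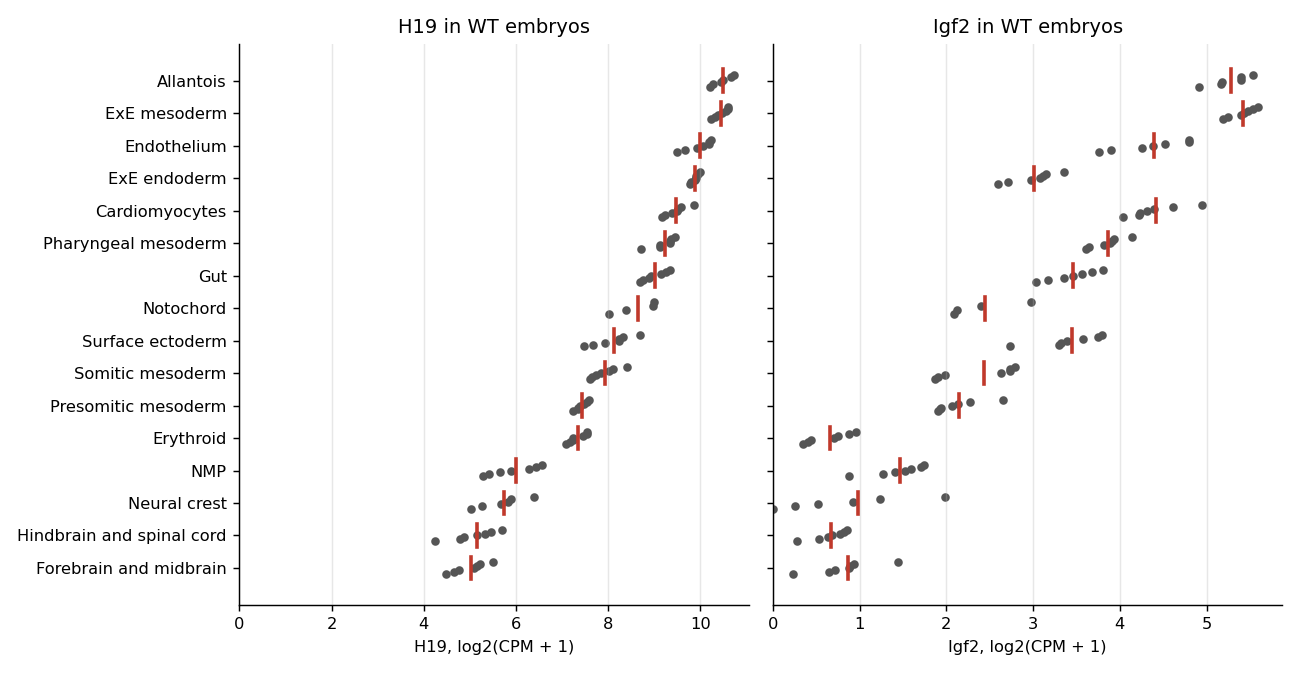
Levels of H19 and Igf2 in the cell classes of WT embryos as log2(CPM + 1), 1 point per embryo with at least 25 cells of the class. A red line marks the mean CPM, put on the same log scale, and the classes are in the order of H19. Both genes run from ExE mesoderm and allantois (1407 and 1432 CPM for H19, 41.7 and 37.8 CPM for Igf2) down to the brain classes, with Igf2 as low in erythroid cells.

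The patterns over WT classes most like that of the pair were found by Pearson r of mean log2(CPM + 1) among 8178 genes. For H19 they were Polg (r = 0.915), the catalytic subunit of mitochondrial DNA polymerase, Igf2 itself (0.912), Zfp9 (0.902), Anxa6 (0.897), a membrane-binding annexin, and Reep5 (0.893), an endoplasmic reticulum shaping protein. For Igf2 they were Zfp9 (0.975), Igf2r (0.948), the receptor that clears IGF2, Dok4 (0.942), a docking protein of tyrosine kinase signalling, Smad6 (0.936), an inhibitor of BMP signalling, and Igf2os (0.933), a transcript antisense to Igf2, with H19 at rank 12. Across the 7 WT embryos the whole-embryo levels of H19 and Igf2 varied together (Pearson r = 0.889, exact permutation p = 0.00833, 0.0167 after adjustment over 2 relations, and Spearman rho = 0.893, exact permutation p = 0.0123). Without WT 1 and 2, the embryos farthest from the median of H19, r was 0.849 (exact permutation p = 0.0667), so the relation did not hold its p on the 5 embryos left.

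Dnmt1 KO embryos shared 4 classes with WT at 25 or more cells in at least 3 embryos of each group, namely endothelium, ExE endoderm, ExE mesoderm and gut. Igf2 was lower in 4 of these 4 classes and H19 was called higher in 2 of 4, where 3.49% of all pairs of gene and class were called lower and 4.36% higher. In ExE mesoderm H19 was at 3638, 3009 and 2332 CPM in Dnmt1 KO 1, 2 and 3, against 1207 (lowest), 1421 (median) and 1550 (highest) in WT. In ExE endoderm it was at 2111, 1935 and 2086 CPM against 879, 956 and 1022. Neither class overlapped with WT, and H19 was called in both (log2 fold changes 1.17, SE 0.11, and 1.12, SE 0.09, adjusted p = 1.65e-07 and 5.5e-08, edgeR). In endothelium H19 was at 1829, 1766 and 1406 CPM against 725 to 1201 in WT, again above every WT embryo, but its log2 fold change, 0.82 (SE 0.18, adjusted p = 0.002, edgeR), was below the size set for a call. In gut it was at 770, 698 and 633 CPM in 29, 37 and 31 cells and overlapped with the WT range of 411 to 647 (log2 0.56, SE 0.18, adjusted p = 0.0277, edgeR).

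Igf2 was close to undetected in the same cells. In ExE mesoderm 20 Igf2 UMIs were counted over the 3 Dnmt1 KO embryos (10, 6 and 4), where the pooled WT rate would have given 1640, a ratio of 82.0 (exact 95% Poisson interval 53.0 to 134). In ExE endoderm there were 10 UMIs (3, 5 and 2) where the WT rate gave 600, a ratio of 60.0 (32.5 to 125). In endothelium and in gut there was 1 UMI each, where the WT rate gave 222 (ratio 222, interval 39.8 to 8782) and 56.8 (ratio 56.8, interval 10.2 to 2249). All 3 mutant embryos were thus far below the lowest WT embryo in each class, which was at 35.4 CPM in ExE mesoderm, 5.02 in ExE endoderm, 12.5 in endothelium and 7.16 in gut. The intervals cover counting error only, and free RNA can add UMIs to any class. The fitted log2 fold changes were -6.26 (SE 0.29, adjusted p = 1.07e-11), -5.87 (SE 0.40, adjusted p = 9.37e-09), -7.46 (SE 0.88, adjusted p = 3.72e-06) and -5.57 (SE 0.85, adjusted p = 6.67e-05, edgeR) in the order above, and those of endothelium and gut, with 1 UMI in the mutants, depend on the prior count.

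**Figure D3:**
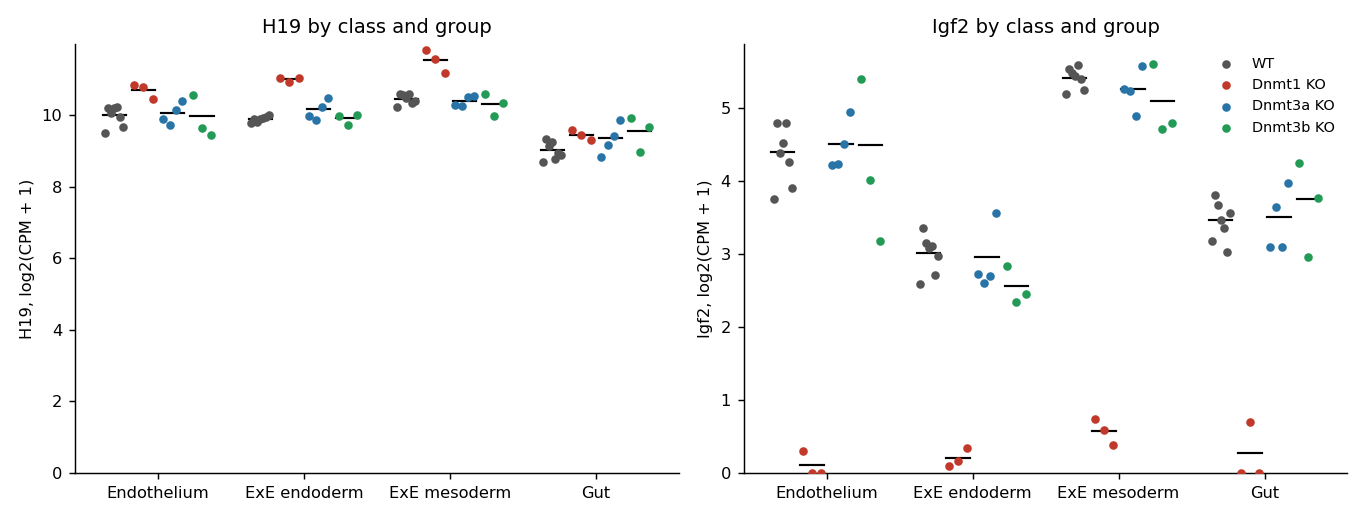
H19 and Igf2 as log2(CPM + 1) in the 4 classes shared by Dnmt1 KO and WT embryos, 1 point per embryo of each group and lines at the group means. H19 of the mutants lies above WT in ExE mesoderm, ExE endoderm and endothelium and overlaps with it in gut, and Igf2 of the mutants lies near 0 in all 4 classes.

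The clusters behind 2 of these classes differed between the genotypes. Clusters were made from at most 1500 cells per library, the reference cells, and shares of clusters are shares of these. Of Dnmt1 KO ExE endoderm reference cells, 73.0% were in cluster 11 (leading genes Apob and Cubn), 99.0% of which was Dnmt1 KO. Of those of WT, 54.6% were in cluster 2 (Apob, Cubn and Afp). Of Dnmt1 KO ExE mesoderm reference cells, 99.8% were in cluster 23 (Tdo2 and Peg3), 98.0% of which was Dnmt1 KO. Of those of WT, 53.3% were in cluster 27 (Postn and Col1a1). Endothelium and gut had the same leading cluster in both groups. The number of cells also differed, with ExE endoderm at 21.2 ± 10.6% of Dnmt1 KO cells (SD, n = 3) and 12.8 ± 3.36% of WT cells (SD, n = 7), and ExE mesoderm at 12.3 ± 5.27% and 3.38 ± 0.854%.

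To hold the makeup of the 4 classes constant, they were averaged in every embryo with the mean WT shares as weights. Endothelium, ExE endoderm, ExE mesoderm and gut held 5.98%, 12.8%, 3.38% and 4.15% of WT cells. All other cells were left out, so this average does not stand for the whole embryo. H19 was then at 1868 ± 151 CPM (SD, n = 3) in Dnmt1 KO and 955 ± 73.5 (SD, n = 7) in WT, a log2 difference of 0.97, and Igf2 at 0.189 ± 0.0287 and 14.9 ± 2.61 CPM, a difference of -3.73 on the log2(CPM + 1) scale. Both had an exact two-sided permutation p = 0.0167, the smallest possible here, and 0.05 after adjustment over 2 genes and 3 KO groups. With 13 classes the differences were 0.25 and 0.03 for H19 and Igf2 in Dnmt3a KO and 0.06 and -0.16 in Dnmt3b KO embryos (adjusted exact permutation p = 0.315, 0.818, 0.8 and 0.8). The H19 effect of a class did not pass the test against that of the other classes in any KO group, with gut nearest in Dnmt1 KO (log2 -0.52, exact permutation p = 0.0167, adjusted 0.0667). This p is the smallest possible here. After adjustment over the classes, no class could have passed alone in any KO group, so nothing is concluded from this test.

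Most Igf2 UMIs left in Dnmt1 KO embryos came from ExE ectoderm, the trophoblast lineage. This class held 28 of 47, 232 of 247 and 25 of 38 Igf2 UMIs of Dnmt1 KO 1, 2 and 3 (59.6%, 93.9% and 65.8%), in 82, 949 and 115 cells. Its Igf2 level was 3.86, 4.96 and 4.13 CPM and its H19 level 1394, 1264 and 1486 CPM in these embryos. In WT 1 embryo, WT 2, had enough such cells (122), with 11.3 CPM of Igf2 (34 UMIs) and 601 CPM of H19, and no test was made against 1 embryo. Of the Dnmt1 KO reference cells of this class 82.1% were in cluster 26 and of those of WT 53.3% were in cluster 40, both led by Fabp3. Tissue for genotyping came from the ectoplacental cone, which is trophoblast, and how much of it stayed with each embryo is not given in the sources used here. Dnmt1 KO embryos had more ExE ectoderm (13.7 ± 15.03% of cells, SD, n = 3, against 0.250% on average in WT) and more cells like epiblast (12.5 ± 3.88% against 0.0534%), which carried 115, 124 and 125 CPM of H19 and 3, 1 and 1 Igf2 UMIs. Over all cells, the summed level of the ExE ectoderm markers was 152 to 563 CPM in Dnmt1 KO and 36.2 to 64.9 in WT, with 7 of 8 markers detected and Tpbpa at 0 in both groups. Without ExE ectoderm and epiblast-like cells the log2 fold changes in Dnmt1 KO were 1.89 for H19 (adjusted p = 4.89e-07, edgeR) and -5.47 for Igf2 (adjusted p = 4.37e-09, edgeR), so both changes were larger without these cells. Forebrain and midbrain, hindbrain and spinal cord, NMPs and neural crest, lowest in H19 in WT, held 0% of Dnmt1 KO cells. They held 2.91%, 10.2%, 4.60% and 1.62% of WT cells. Erythroid cells were at 1.39% against 11.6%. The whole-embryo H19 change (log2 1.60) exceeded that of each of the 4 shared classes (0.56 to 1.17). The part of the missing classes in it was not tested. The study reported a minor developmental delay of Dnmt1 mutants.

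H19 UMIs of Dnmt1 KO embryos came from ExE endoderm (35.5 ± 16.0%, SD, n = 3), ExE mesoderm (28.1 ± 8.73%) and ExE ectoderm (15.5 ± 13.3%). In WT the largest named source of Igf2 UMIs was ExE mesoderm (20.2% on average), followed by ExE endoderm (11.4%) and allantois (10.3%). Without ExE endoderm cells the log2 fold changes in Dnmt1 KO were 1.64 and -2.80.

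In Dnmt3a KO and Dnmt3b KO embryos no class was called for either gene. By the edgeR test H19 was called in 0 of 16 classes in Dnmt3a KO and 0 of 14 in Dnmt3b KO, with 9 and 2 classes at an unadjusted p under 0.05, and Igf2 in 0 of 13 in each, with 0 and 1; DESeq2 also called 0. Over all pairs of gene and class 0.123% were called in Dnmt3a KO and 0.701% in Dnmt3b KO, and 10.1% and 14.9% were at an unadjusted p under 0.05. H19 was higher than in WT in each of the 9 Dnmt3a KO classes under that unadjusted cut. Allantois and ExE mesoderm were the classes below 0 in Dnmt3a KO (log2 -0.083 and -0.084). The adjusted p was lowest in surface ectoderm (log2 0.73, SE 0.20, adjusted p = 0.133, edgeR). There H19 was at 336 to 582 CPM in Dnmt3a KO (median 495, n = 4) and 179 to 413 in WT (n = 7). The log2 fold changes of H19 were largest in forebrain and midbrain, 1.59 in Dnmt3a KO (SE 0.42, adjusted p = 0.169, edgeR) and 1.35 in Dnmt3b KO (SE 0.45, adjusted p = 0.206, edgeR). Dnmt3a KO 1, 2, 13 and 14 were at 37.0, 252, 31.9 and 66.4 CPM and Dnmt3b KO 1+2, 11 and 12 at 134, 43.3 and 63.7, against 21.3 to 44.6 in WT. Dnmt3a KO 2 was the highest of all embryos, Dnmt3a KO 1 and 13 were within the WT range, and so was Dnmt3b KO 11. Dnmt3a KO 1 and 13 and Dnmt3b KO 11 were counted on the combined human and mouse reference. Without Dnmt3a KO 2, which enters the shared estimate of the spread, H19 was called in forebrain and midbrain of Dnmt3b KO (log2 1.35, adjusted p = 0.00568, edgeR), and without a filter on low counts it was called there in Dnmt3a KO (log2 1.56, adjusted p = 0.00901, edgeR). In hindbrain and spinal cord the same embryo was at 227 CPM, the other 3 at 28.2 to 69.1 and WT at 17.9 to 50.9 (log2 1.35, adjusted p = 0.302, edgeR).

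The H19 level of Dnmt3a KO 2 was high together with that of ExE endoderm markers. In forebrain and midbrain cells the 8 ExE endoderm markers together were at 366 CPM in Dnmt3a KO 2, 70.4 to 145 in the other Dnmt3a KO embryos, 115 to 150 in Dnmt3b KO and 42.8 to 168 in WT embryos. Dnmt3a KO 2 also had the lowest median count per cell (4463.5 UMIs) and 4539 ExE endoderm cells among its 12716 kept cells. The part of free RNA in the H19 level of neural cells was not tested. Dnmt3b KO 1+2, with 134 CPM of H19, had 131 CPM of these markers, within the WT range, and WT 1, with the highest marker level in WT, had 24.4 CPM of H19. ExE mesoderm markers were at 18.8 CPM in Dnmt3a KO 2, within the WT range of 10.2 to 21.9, and erythroid markers were at 186 to 806 CPM in Dnmt3a KO, 410 to 603 in Dnmt3b KO and 31.0 to 734 in WT.

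**Figure D4:**
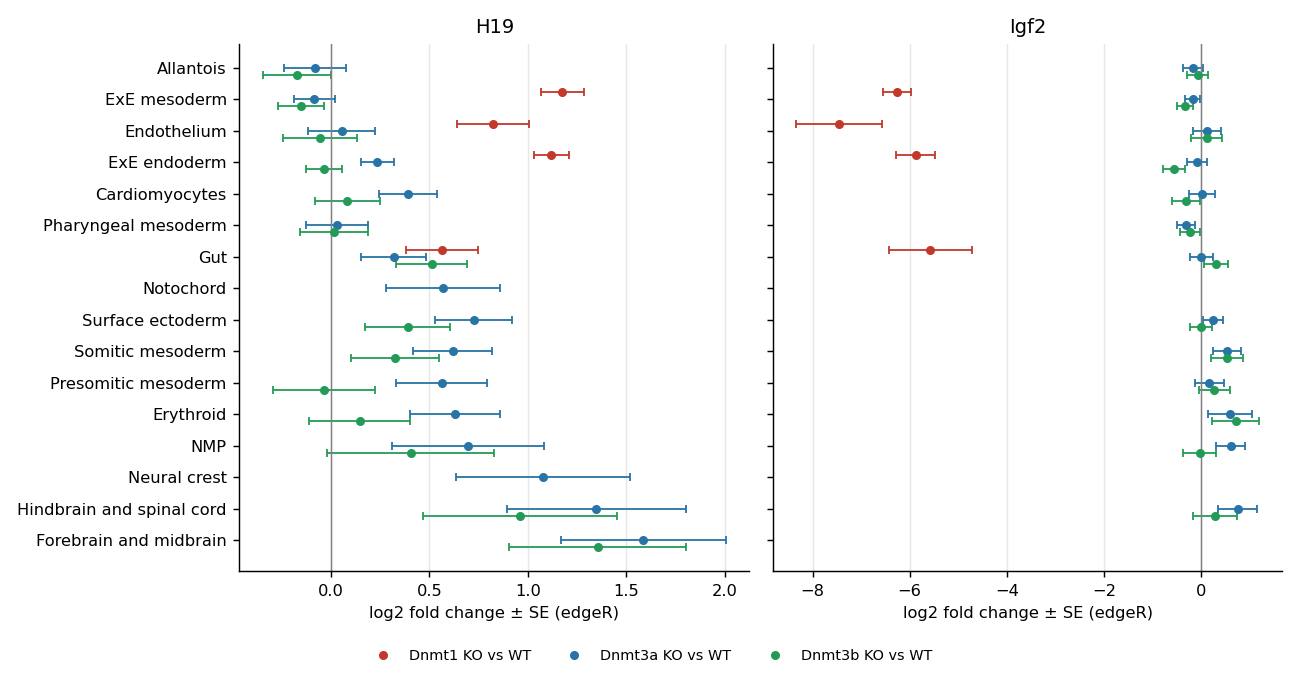
Log2 fold changes of H19 and Igf2 against WT in each class and KO group from the edgeR fit, with the SE as bars. In Dnmt1 KO, H19 is at 0.56 to 1.17 and Igf2 at -7.46 to -5.57, and in the other KO groups the H19 estimates are highest in forebrain and midbrain (1.59 and 1.35), with none called.

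The neighbourhood of the pair was examined over 500 kb on either side of the H19 start, where 56 genes are annotated, 40 are in the gene list of the files and 23 were tested, the pair included. Of the 21 neighbours 8 were called in the Dnmt1 mutants, against 14.3% of all genes, 0 in the Dnmt3a mutants, against 0.224%, and 4 in the Dnmt3b mutants, all 4 higher as were 1.77% of genes, with median log2 fold changes of 0.12, 0.20 and 0.31. On the Igf2 side of H19, Igf2os, Ins2 and Gm6471 fell in Dnmt1 KO. Igf2os, which lies within the Igf2 region on the opposite strand, fell from 6.32 ± 0.680 CPM (SD, n = 7) to 1.14 ± 0.829 (SD, n = 3), log2 -2.37 (SE 0.30, adjusted p = 1.22e-05, edgeR). Cell Ranger, which the study ran with its default mapping settings, counts reads in the sense direction of a gene. Ins2, an insulin gene that is imprinted in the yolk sac, was at 0.550 CPM in WT and 0.0292 in Dnmt1 KO (log2 -4.10, SE 0.75, adjusted p = 0.000444, edgeR), and Gm6471 was lower too (log2 -2.51). Without Dnmt1 KO 2 Igf2os was at -3.19 and Ins2 at -5.01, both still called, and Gm6471 lost its call (-1.82, adjusted p = 0.0192, edgeR), and without Dnmt1 KO 1 Gm6471 was at -3.18. Gm33148, 13.6 kb from the H19 start on the Igf2 side, was at -0.98 (adjusted p = 0.00591, edgeR), just under the size for a call, which it passed without Dnmt1 KO 3 (-1.11) or WT 4 (-1.02). Gm49394, which overlaps Igf2, was at -1.58 and not called.

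On the other side of H19, Mrpl23, a mitochondrial ribosomal protein gene, was at 0.12 (adjusted p = 0.551, edgeR). The skeletal troponin genes Tnnt3 and Tnni2 rose in Dnmt1 KO (log2 1.59 and 1.44), with Tnnt3 at 4.14 CPM in WT and 11.96 in the mutants. Prr33 (1.44) and, beyond Igf2, Th (1.68), which encodes tyrosine hydroxylase, were also called, from 0.0487 and 0.0452 CPM in WT. The Tnnt3 call held without each embryo in turn. Those of Tnni2 and Th, at adjusted p = 0.00968 and 0.00996 (edgeR), were lost without any single embryo other than a Dnmt3b KO embryo or, for Tnni2, WT 1 and, for Th, Dnmt1 KO 1, with Tnni2 at 1.29 without Dnmt1 KO 3 and Th at 1.04 without Dnmt1 KO 2 as the lowest values. Prr33 lost its call without Dnmt1 KO 1 (1.24), Dnmt1 KO 3 (1.37) or WT 6 (1.37). Syt8 was at 1.01 and not called (adjusted p = 0.0392, edgeR), but was called higher without Dnmt3b KO 12 (1.01, adjusted p = 0.00138, edgeR). The largest rise among the neighbours was that of Ascl2 (log2 4.32, SE 0.63, adjusted p = 5.48e-05, edgeR), an imprinted trophoblast transcription factor gene. It lies 391 kb from H19, on the Igf2 side and beyond Igf2. Ascl2 was at 4.63, 59.4 and 6.26 CPM in Dnmt1 KO 1, 2 and 3 against 1.24 ± 1.05 (SD, n = 7) in WT, so that Dnmt1 KO 2 stood far above the other 2 mutants. Without it the log2 fold change was 2.18 (adjusted p = 0.0037, edgeR), still called; without WT 2 it was 4.96. Ascl2 is a leading gene of cluster 26, the ExE ectoderm cluster that was 97.1% Dnmt1 KO. 
In Dnmt3b KO, Tnni2 (2.09), Syt8 (1.73), Tnnt3 (1.17) and Lsp1 (1.14) were called higher against the same WT embryos. A single embryo, Dnmt3b KO 12, carried these calls. It was the library made with Cell Ranger 5.0.0 and the Dnmt3b KO library without Y-linked transcripts, and the part of either in these values was not tested. Tnni2 was at 2.88, 3.097 and 18.5 CPM in Dnmt3b KO 1+2, 11 and 12 against 1.40 to 2.59 in WT, and Syt8 at 0.293, 0.365 and 1.43 against 0.174 to 0.262. Tnnt3 was at 6.76, 6.47 and 15.6 CPM against 2.90 to 4.70, and Lsp1 at 15.1, 10.8 and 26.9 against 6.79 to 8.96. The other Dnmt3b KO embryos were thus also above the WT range for these genes, by less. Without Dnmt3b KO 12, 1 of the libraries in which Dnmt3a was low, 0 of the 4 were called and their log2 fold changes were 0.68, 0.71, 0.66 and 0.72 (adjusted p = 0.315, 0.258, 0.289 and 0.124, edgeR). Single other embryos also ended a call, namely WT 3, 4, 5, 6 or 7 for Syt8, WT 6 or 7 for Tnni2 and WT 1, 3, 4, 5, 6 or 7, Dnmt1 KO 1 or Dnmt3a KO 1, 2 or 13 for Tnnt3, with log2 fold changes of 1.09 or more. Calls were also gained, with Ifitm10 (1.21, adjusted p = 0.0101, edgeR) called higher without Dnmt1 KO 2 or 3 or WT 1 or 2, and Th (1.86, adjusted p = 0.0196, edgeR) without Dnmt3b KO 1+2 or 11.

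**Figure D5:**
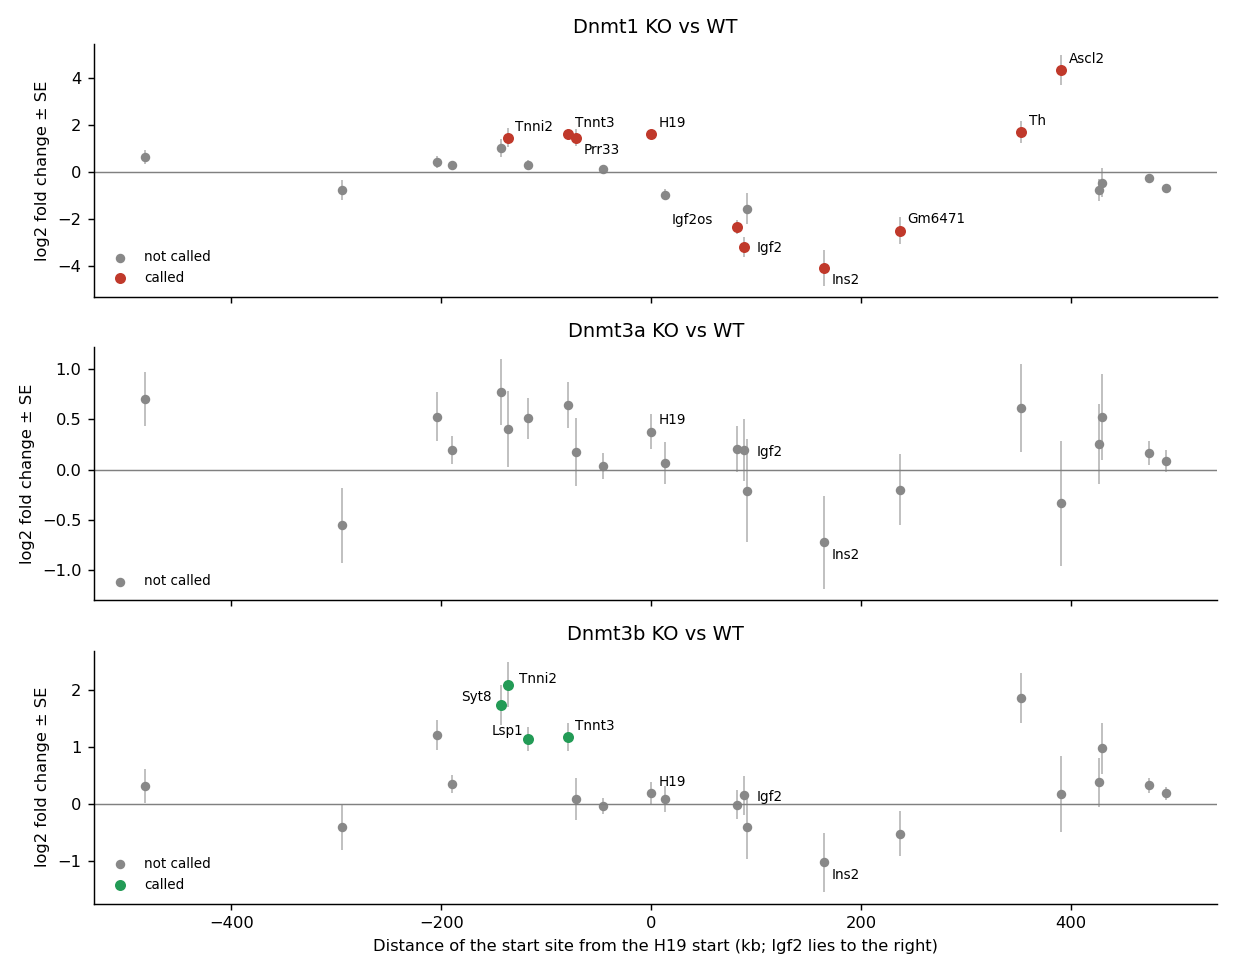
Log2 fold change against WT of the 23 tested genes by distance of their start from the H19 start in kb, positive toward Igf2, for each KO group, with coloured points for called genes, grey points for the others and the SE as bars. In Dnmt1 KO, Igf2os, Igf2, Ins2 and Gm6471 are lower and H19, Tnnt3, Tnni2, Prr33, Th and Ascl2 higher.

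Genes that act with IGF2 were read from lists of ligands, receptors, binding proteins, adaptors, mRNA-binding proteins and regulators. In Dnmt1 KO 8.15% of all genes were called higher and 6.11% lower, beside which the counts below stand. Among ligands, Igf2 and Ins2 fell in Dnmt1 KO, 2 of 3 tested, and Igf1, the other IGF ligand, was at 6.42 CPM in WT and 5.95 in Dnmt1 KO (log2 -0.05, adjusted p = 0.868, edgeR). Of 4 receptors 2 fell. Igf2r, itself imprinted and maternally expressed, fell from 73.4 ± 12.03 CPM (SD, n = 7) to 19.9 ± 5.53 (SD, n = 3), log2 -1.81 (SE 0.17, adjusted p = 4.62e-07, edgeR), and Insrr, barely detected at 0.0815 CPM in WT, was called lower (-3.39), a call lost without Dnmt1 KO 1 (-2.82) or 2 (-2.69), while without Dnmt1 KO 3 it was at -6.86. Igf1r, the receptor through which IGF2 signals, was at 49.8 CPM in WT and 34.0 in Dnmt1 KO (log2 -0.48, adjusted p = 0.0666, edgeR), and Insr at 9.01 and 11.6 (log2 0.43, adjusted p = 0.0299, edgeR). The median of the 3 ligands is the value of Igf2 itself, and those of the other lists, receptors first and in the order of this account, were -1.15, -0.45, -0.32, -0.26, 0.10 and -0.26, where that of all genes tested was 0.01.

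Of 12 binding proteins and proteases 1 rose and 3 fell. Igfbp1 rose from 1.36 to 7.64 CPM (log2 2.55, SE 0.41), and Igfbp3 (-1.58), Igfbp5 (-1.62) and Stc1 (-2.36), an inhibitor of the protease PAPPA that cleaves IGF-binding proteins, fell. Without Dnmt1 KO 3, Igfbp7 (0.89 with all embryos, 1.28 without it) and Stc2 (0.99 and 1.30) were called higher too. Stc2 was also called without WT 1 (1.00) or WT 2 (1.06). Of 8 adaptors Irs4 fell (log2 -2.83, SE 0.34). Without Dnmt1 KO 3 Gab1 was called higher (1.19, against 0.92 with all embryos). None of the 3 Igf2 mRNA-binding proteins was called, with Igf2bp1 at 253 and 200 CPM in WT and Dnmt1 KO, Igf2bp2 at 120 and 106 and Igf2bp3 at 123 and 93.8 (adjusted p = 0.078, 0.598 and 0.0138, edgeR).

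Of 16 insulator and imprint maintenance factors 1 was called, Ctcfl, the germline paralogue of Ctcf, which rose from 0.119 to 0.367 CPM (log2 1.76, SE 0.31), while Ctcf was at 161 CPM in WT and 158 in Dnmt1 KO. Without WT 7 Dppa3, which protects imprints in the early embryo, was called higher as well (2.45, against 1.64 and adjusted p = 0.0214 with all embryos, edgeR). Of 14 genes of the imprinted network that includes the pair, 2 rose and 5 fell. The paternally expressed Peg3 rose from 336 ± 32.2 to 922 ± 88.8 CPM (log2 1.53, SE 0.09) and Slc38a4, an amino acid transporter gene, by 1.11. Grb10, an inhibitor of insulin and IGF receptor signalling, fell from 182 ± 33.0 to 2.01 ± 1.02 CPM (log2 -6.44, SE 0.30), Cdkn1c, a cell cycle inhibitor, from 321 ± 62.3 to 9.54 ± 1.76 CPM (log2 -5.01, SE 0.22), and Dlk1, Igf2r and Dcn also fell (-2.89, -1.81 and -1.54). Meg3, an imprinted non-coding RNA gene at 0.92, was called higher without Dnmt1 KO 2 (1.03) or WT 3 (1.02). Each of these calls had an adjusted p under 0.01 by the edgeR test, as the rule requires. In Dnmt3a KO and Dnmt3b KO embryos 0 genes of these 7 lists were called by edgeR or DESeq2. Of the 58 tested genes other than Igf2, 16 and 15 were at an unadjusted p under 0.05 in edgeR. These shares are larger than the 9.54% and 17.9% of all genes, a difference that was not tested.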

How the data were processed

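The deposited files hold raw counts: UMIs per gene and cell barcode, made by the authors with Cell Ranger, on mm10 alone for 14 libraries and on a combined human and mouse reference for 4. The latter were WT 1, Dnmt3a KO 1 and 13 and Dnmt3b KO 11. The headers of the count matrices name Cell Ranger 3.1.0 for 17 libraries and 5.0.0 for 1, Dnmt3b KO 12, whereas the study's methods name 5.0.0. Cell Ranger discards reads that match more than 1 gene. From these counts, barcodes with at least 1500 mouse UMIs, at most 30% mitochondrial and 35% ribosomal counts were kept. Then 7924 likely doublets were removed with scrublet's simulated-doublet score, which left 109962 cells. At most 1500 of these per library, the reference cells, were clustered (scanpy 1.11.5, leidenalg 0.10.2, 2500 variable genes, 50 components, 30 neighbours, resolution 2) without H19, Igf2 and the gene lists. Clusters were named from marker lists, so names are rebuilt and 11 clusters stayed unnamed. Every kept cell took the most frequent class among its 30 nearest reference cells. Depth ran from 36516346 to 279830077 UMIs per embryo, which limits the precision of low counts such as those of Igf2 in Dnmt1 KO cells.

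UMIs were summed per embryo, or per class with at least 25 cells, and tested in 1 fit over the 4 groups with the edgeR 4.0.16 quasi-likelihood test (TMM, filterByExpr, Benjamini-Hochberg; called at an adjusted p below 0.01 with the log2 fold change 1 or more in size) in R 4.3.3, with DESeq2 1.42.0 as an alternative. Single values were tested by exact permutation over embryos (scipy 1.17.1). The fitting code was tested on simulated data. Replicates are separate embryos. The 95% intervals of fold changes are Wald intervals.

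Named genes are the pair, tested genes within 500 kb, IGF ligands, receptors and Igf2 mRNA-binding proteins, up to 4 called members of each other list by size of change, and the 5 genes most like each member by WT class profile (at least 20 CPM in a class). Ctcf, Mrpl23, Gm33148 and Gm49394 are named for their place or role, whatever their call, and Peg3, Slc38a4, Dcn, Ifitm10, Igfbp7, Stc2, Gab1, Dppa3 and Meg3 beside small counts, after their values were seen. The members and lists were chosen with earlier results of these data known. Alternatives were other normalization, test, filters, cells, depth, covariates, blocks and embryos. Marker clusters were not compared between groups by size beyond the shares given. Sequences are from RefSeq (GRCm38.p6).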

Additional observations from a re-analysis of the deposited data

Results flagged for a closer look

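Of 68 groups of 4 to 7 embryos examined, 5 held an embryo far from the others of its group by Dixon's criterion, which chance does in about 1 in 20 groups. Igf2 was at 14.9 CPM in the whole embryo Dnmt3a KO 2 and at 8.79 to 9.53 in the other Dnmt3a KO embryos. The same embryo was apart for Igf2 in ExE endoderm (10.8 CPM, others 5.08 to 5.61) and somitic mesoderm (8.76 CPM, others 5.42 to 5.93), and for H19 in forebrain and midbrain (252 CPM, others 31.9 to 66.4). It was the library with the lowest median count per cell (4463.5 UMIs), and the part of depth in these values was not tested. In presomitic mesoderm of WT 2, Igf2 was at 5.31 CPM and in the other WT embryos at 2.74 to 3.81.

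On the log2(CPM + 1) scale the Igf2 difference between Dnmt1 KO and WT was set in each of the 4 shared classes against the mean of the other 3, by exact permutation over embryos. It stood at -1.43 in ExE mesoderm (adjusted p = 0.0222, exact permutation), -0.63 in endothelium (adjusted p = 0.0333, exact permutation), 1.31 in ExE endoderm (adjusted p = 0.0222, exact permutation) and 0.75 in gut (adjusted p = 0.0222, exact permutation). The mutants were near 0 in all 4 classes (0.0770 to 0.491 CPM on average), so on this scale the value was set by the WT level, which ran from 7.08 CPM in ExE endoderm to 41.7 in ExE mesoderm. The fitted log2 fold changes had another order, with -7.46 in endothelium and -6.26 in ExE mesoderm, and the counting intervals of the 2 pooled ratios overlapped (39.8 to 8782 and 53.0 to 134), so that a difference between classes in the fold of the fall was not shown.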

How the results depend on the processing

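Of 686 recomputed values, 654 kept their direction and their side of the threshold or were counts that moved little or not at all. A further 4 lost a call, 20 changed sign without being called in either setting and 8 were counts that moved more. The 654 include the permutation tests of Dnmt1 KO for the ratio and at WT class makeup. These had no adjusted p under 0.05 with all embryos and so had no call to lose. The settings without Dnmt3b KO 11 and 12, without ExE classes, with Igf2 and Gm49394 summed and with the replicate block on unsummed libraries, and the recounts of the gene lists and neighbours, were chosen after seeing the data. The calls of H19 and Igf2 in Dnmt1 KO against WT held under every alternative run. H19 in Dnmt1 KO against Dnmt3a KO was not called among libraries counted on mouse alone (0.94) or with a replicate block (1.08). The mouse-alone setting left Dnmt3a KO 2 and 14 of that group. H19 in Dnmt1 KO against Dnmt3b KO was not called with the replicate block (1.10) or without Dnmt3b KO 11 and 12 (1.07). The settings that left out libraries had fewer embryos, and the cause was not tested otherwise. The number of classes with H19 called in Dnmt3a KO was 1 without a filter on low counts. Signs changed, with no call, for Igf2 with the Y-linked covariate in Dnmt3a KO (-0.24), in Dnmt3b KO (-0.14) and between them (0.11). Between Dnmt3b KO and Dnmt3a KO they changed without Dnmt3b KO 11 and 12 for H19 (0.15) and Igf2 (0.52), and for Igf2 with Dnmt3b KO 1 and 2 kept separate (0.14) or with the replicate block (0.46).

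Leaving out each embryo in turn other than Dnmt3b KO 1+2 gave log2 fold changes against WT of 1.47 to 1.75 for H19 and -4.27 (without Dnmt1 KO 2) to -2.86 for Igf2 in Dnmt1 KO, of 0.11 to 0.49 and -0.033 to 0.34 in Dnmt3a KO, and of 0.16 to 0.31 and 0.092 to 0.34 in Dnmt3b KO. Against Dnmt3a KO, Dnmt1 KO gave 1.09 to 1.495 and -4.47 to -3.05, against Dnmt3b KO 1.28 to 1.55 and -4.44 to -3.01, and Dnmt3b KO against Dnmt3a KO -0.30 to 0.090 and -0.17 to 0.20. The log2 ratio difference was 4.63 to 5.77 in Dnmt1 KO (adjusted exact permutation p 0.0714 to 0.167), 0.053 to 0.25 in Dnmt3a KO and -0.063 to 0.11 in Dnmt3b KO. At WT class makeup the differences were 0.91 to 1.02 for H19 and -3.77 to -3.67 for Igf2 in Dnmt1 KO, 0.095 to 0.35 and -0.10 to 0.092 in Dnmt3a KO, and 0.023 to 0.21 and -0.20 to 0.021 in Dnmt3b KO. The classes called were 2 for H19 and 4 for Igf2 in Dnmt1 KO throughout, 0 to 1 for H19 in Dnmt3b KO and 0 otherwise, and the WT correlation was 0.874 to 0.915. Of the gene lists and neighbours together, 19 to 23 genes were called in Dnmt1 KO, 0 in Dnmt3a KO throughout and 0 (without Dnmt3b KO 12) to 5 in Dnmt3b KO. Without Dnmt3b KO 1+2, Dnmt3b KO was at -0.014 for H19 and -0.24 for Igf2 against WT, at -0.39 and -0.44 against Dnmt3a KO, and at -0.12 and -0.49 at WT class makeup, with a log2 ratio difference of 0.21, none called, and Dnmt1 KO against Dnmt3b KO was at 1.61 and -2.96, both called.

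The replicate numbers of the labels did not pair the embryos: over 13 same-numbered pairs the correlation of deviations from the group means ran from -0.34 to 0.40, with 5 over 0.1. With the replicate block, Dnmt1 KO against WT was at 1.503 for H19 and -3.53 for Igf2, both called. Low counts limit the precision of Igf2 in Dnmt1 KO, with 38 to 247 Igf2 UMIs among 79928484 to 131750114 UMIs per embryo.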
